A study of Mus musculus with 6 samples.

Results

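The 10 genes *Lgr5*, *Tnfrsf19*, *Rgmb*, *Lrig1*, *Olfm4*, *Smoc2*, *Ascl2*, *Bmi1*, *Prom1* and *Cd44* are markers of stem and progenitor cells in the intestine. They were taken by symbol from the 23366 genes of the count tables, and all 10 were among the 12501 genes that passed the filter on low counts and were tested. RNA-sequencing was performed on EpCAM-positive epithelial cells of the mouse small intestine at embryonic day 13.5 (E13.5), with 3 libraries from wild type embryos and 3 from embryos of the genotype Shh-cre-egfp:Tcf7l1 lox/lox, called mutant below, and 500 sorted cells in each library. In the mutants, Cre is expressed from the *Shh* locus of the gut epithelium and deletes a floxed exon of *Tcf7l1*, which encodes a repressor of WNT target genes. No embryos received a treatment, and a control with Cre but intact *Tcf7l1* is not among the libraries. The total count per library lay between 18216537 and 20397278.

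*Tcf7l1* itself had 363 to 476 normalized counts in wild type against 33.0 to 72.9 in mutant libraries, and *Shh*, whose locus carries Cre, had 411 to 542 and 183 to 223. *Xist* had counts in mutant libraries only and the Y-linked gene *Ddx3y* in wild type libraries only, so the effects of sex, of the Cre allele and of *Tcf7l1* loss on the markers cannot be told apart. Wild type 3 stood apart from the other wild type libraries. The chi-square of the counts was at least 16.0 per gene between it and each of them and 8.57 between wild type 1 and 2, where sampling noise alone gives a value near 1. The libraries were labelled as biological replicates, and whether each came from a separate embryo was not stated.

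In the adult crypt, stem cells at the base divide under WNT and R-spondin signals and give rise to progenitors of the absorptive and secretory lineages. Most of the 10 genes were described in these adult stem cells, several of them as targets of WNT signalling, while *Bmi1* and *Lrig1* have also been used to mark cells that divide less often. At E13.5 the intestine is a tube of dividing progenitors without crypts, so that a marker of the adult stem cell need not mark a separate cell population. In a bulk library, fewer cells with a transcript and less of it per cell cannot be told apart.

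*Olfm4* rose 3.30-fold in the mutant epithelium, whereas *Tnfrsf19* fell to 42.0% and *Smoc2* to 52.1% of the wild type mean. The other 7 markers were not called. The test was edgeR's quasi-likelihood test with TMM normalization and Benjamini-Hochberg adjustment. A gene was called when its adjusted p was under 0.01, its log2 fold change 0.5 or more in either direction and its mean normalized count 50 or more. Of the 10 markers 1 was called higher, where 2.78% of all tested genes were, and 2 were called lower, where 5.83% were (8.62% in either direction). Their median log2 fold change was -0.14, against -0.04 over all tested genes. For 5 of the 10, or 50%, wild type and mutant libraries covered separate ranges, as they did for 43.0% of all tested genes. The mutant libraries were all above in 2 of these (20.8% of all tested genes) and all below in 3 (22.2%). Of the 10 fold changes 3 were above and 7 below the wild type level. Leaving out each library in turn always kept *Olfm4* called higher, while the number called lower ranged from 0, without wild type 2 or without mutant 1, to 3, without wild type 3.

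**Figure D1:**
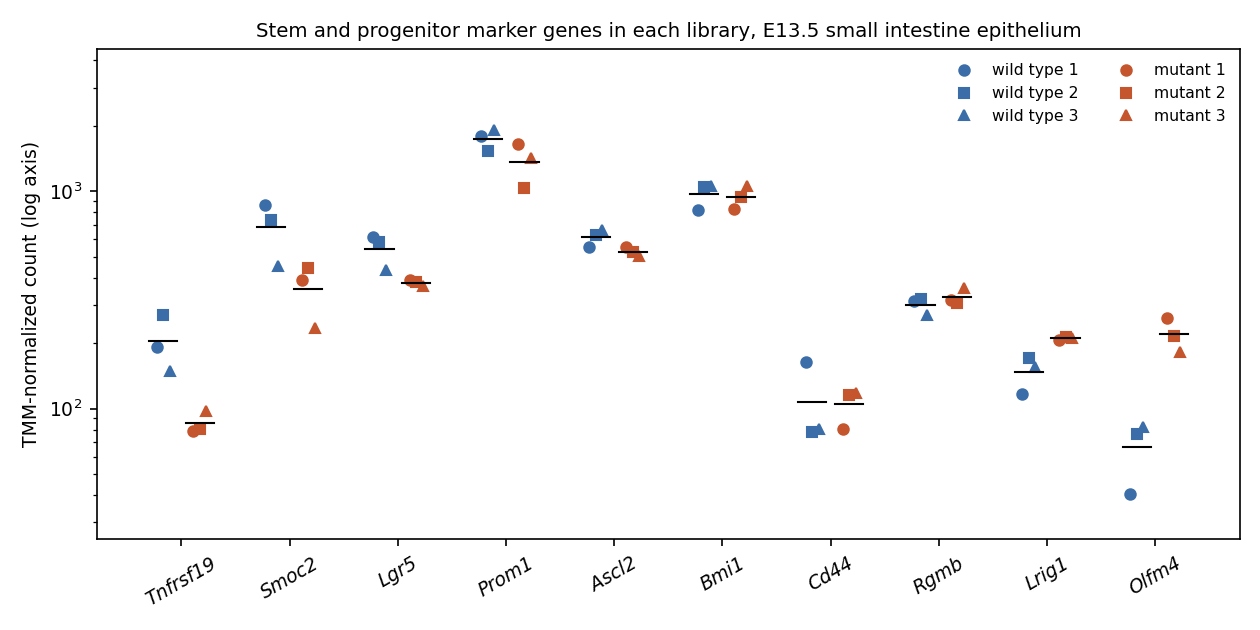
TMM-normalized counts (log axis) of the 10 marker genes in the 3 wild type (blue) and 3 mutant (orange) libraries, ordered by fold change, with the replicate number given by the symbol and the group mean by a black line. The groups do not overlap for *Tnfrsf19*, *Smoc2* and *Lgr5*, which are lower in all mutant libraries, or for *Lrig1* and *Olfm4*, which are higher in all of them.

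*Olfm4* (ENSMUSG00000022026, chromosome 14, 80400109 to 80422667 of mm9, plus strand) encodes olfactomedin 4, a secreted glycoprotein of adult crypt stem cells. Its normalized counts were 40.3, 76.3 and 82.6 in wild type 1, 2 and 3, against 262, 215 and 182 in mutant 1, 2 and 3. Every mutant library was thus above every wild type library. The log2 fold change was 1.72 (SE 0.28, adjusted p = 3.7e-04, edgeR with Benjamini-Hochberg adjustment). It lay between 1.47, without wild type 1, and 1.93, without wild type 3, and *Olfm4* was called in all 14 alternatives. The depth behind it was low in wild type, with 43 to 87 raw counts, against 165 to 253 in mutant libraries.

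The other secreted protein among the markers is encoded by *Smoc2* (ENSMUSG00000023886, chromosome 17, 14416513 to 14541797, plus strand), a calcium-binding protein of the extracellular matrix. Its normalized counts were 867, 735 and 452 in wild type against 390, 445 and 234 in mutant libraries. The groups met almost without a gap, since wild type 3 lay just above mutant 2. The log2 fold change was -0.94 (SE 0.23, edgeR adjusted p = 0.0071). This call was kept only without wild type 3 (-1.15) or without mutant 2 among the fits that left out 1 library, and the adjusted p rose to 0.051 without wild type 1. It was also lost with the correction for gene length (adjusted p = 0.023).

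Of the receptors, *Tnfrsf19* (ENSMUSG00000060548, chromosome 14, 61582671 to 61665692, minus strand) encodes TROY, a member of the tumour necrosis factor receptor superfamily that is a WNT target and dampens WNT signals in adult stem cells. Its normalized counts were 192, 270 and 149 in wild type against 78.6, 80.8 and 97.2 in mutant libraries. The mutant libraries were close to each other and all lower than wild type 3, the lowest of the wild type libraries. The log2 fold change was -1.25 (SE 0.26, edgeR adjusted p = 0.0022). Leaving out wild type 2 ended the call (-0.99, edgeR adjusted p = 0.021), as did leaving out mutant 1 (0.012) or mutant 2 (0.011), and it was kept in the other 3 fits of this kind.

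*Lgr5* (ENSMUSG00000020140, chromosome 10, 114887367 to 115024836, minus strand) encodes the R-spondin receptor by which crypt base columnar stem cells were first traced. Its normalized counts were 613, 581 and 435 in wild type against 389, 383 and 368 in mutant libraries. The mutant libraries lay within a narrow band below all wild type libraries, and wild type 3 was the nearest to them. The log2 fold change was -0.52, with a 95% interval from -0.84 to -0.19, and the edgeR adjusted p of 0.020 missed the threshold of 0.01. Without wild type 3 the difference was called, at -0.64 (adjusted p = 0.0029), and without wild type 1 the adjusted p was 0.107. With the correction for gene length it was -0.31 (adjusted p = 0.093).

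The ratio of *Olfm4* to *Lgr5* normalized counts was 0.0656, 0.131 and 0.190 in wild type 1, 2 and 3, against 0.673, 0.561 and 0.495 in the mutant libraries in the same order. The ratio was thus higher in every mutant library than in any wild type library. The separate ranges of both genes, given above, already fix this, so it is no further result.

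*Lrig1* (ENSMUSG00000030029, chromosome 6, 94554523 to 94650152, minus strand) encodes a transmembrane protein that restrains receptors of the ERBB family. It had 117, 170 and 156 normalized counts in wild type against 206, 213 and 212 in mutant libraries. All mutant libraries were above the wild type ones, but the adjusted p was 0.078 (log2 fold change 0.51, 95% interval 0.07 to 0.95) and the gene was not called in any of the 14 alternatives. Among these the log2 fold change was highest with the correction for gene length (0.72, edgeR adjusted p = 0.015) and lowest without wild type 1 (0.37, 0.275). *Slc25a26*, transcribed in the other direction, shares 2.15% of its exon bases.

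*Rgmb* (ENSMUSG00000048027, chromosome 17, 15941626 to 15963550, minus strand), which encodes a membrane-anchored coreceptor for bone morphogenetic proteins, had 313, 319 and 269 normalized counts in wild type against 314, 307 and 358 in mutant libraries. The groups overlapped. The 95% interval of its log2 fold change of 0.12 ran from -0.22 to 0.46, which leaves out changes past the threshold of 0.5 for this fit only. After the correction for gene length the log2 fold change was 0.35 (SE 0.14, edgeR adjusted p = 0.080).

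Of the nuclear proteins, *Ascl2* (ENSMUSG00000009248, chromosome 7, 150152727 to 150155169, minus strand) encodes a basic helix-loop-helix transcription factor that is a WNT target and maintains the identity of adult stem cells. Its normalized counts were 552, 628 and 662 in wild type against 554, 526 and 501 in mutant libraries. Mutant 1 and wild type 1 were nearly equal, and the groups overlapped there. The log2 fold change was -0.22 (95% interval -0.49 to 0.05, edgeR adjusted p = 0.214).

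*Bmi1* (ENSMUSG00000026739, chromosome 2, 18598645 to 18608256, plus strand), a subunit of the Polycomb repressive complex PRC1, had 820, 1046 and 1058 normalized counts in wild type against 824, 942 and 1059 in mutant libraries. Both groups covered the same span, with a log2 fold change of -0.05 and a 95% interval from -0.32 to 0.22. Its direction was not stable, since 4 of the 14 alternatives put it above the wild type level.

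Both remaining markers are surface proteins. *Prom1* (ENSMUSG00000029086, chromosome 5, 44384864 to 44493271, minus strand) encodes prominin 1, also named CD133, a glycoprotein of membrane protrusions. It had 1787, 1538 and 1903 normalized counts in wild type against 1645, 1031 and 1416 in mutant libraries. Mutant 1 lay within the wild type range and mutant 2 was the lowest library. The log2 fold change of -0.35 (95% interval -0.64 to -0.06) had an edgeR adjusted p of 0.063, and it was -0.19 without mutant 2 and -0.13 with the correction for gene length. In the other direction, it was -0.51 without mutant 1 (edgeR adjusted p = 0.021) and -0.46 with library size as the only scaling (0.029). *Prom1* was not called in any of the 14 alternatives. An opposite-strand gene, *Gm16401*, shares 4.16% of its exon bases, and how the authors' counting treated strand was not stated.

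*Cd44* (ENSMUSG00000005087, chromosome 2, 102651298 to 102741822, minus strand) encodes the hyaluronan receptor, a WNT target in adult crypts. It had 164, 78.2 and 80.7 normalized counts in wild type against 80.6, 116 and 118 in mutant libraries. Wild type 1 had about the sum of the other wild type libraries, and the group means, 108 ± 48.8 and 105 ± 21.0 (SD, n = 3), were close. The 95% interval of the log2 fold change of -0.04 reached from -0.71 to 0.63 and leaves out the fold changes of the called markers for this fit. Without wild type 1 the log2 fold change was 0.40 (adjusted p = 0.419).

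**Figure D2:**
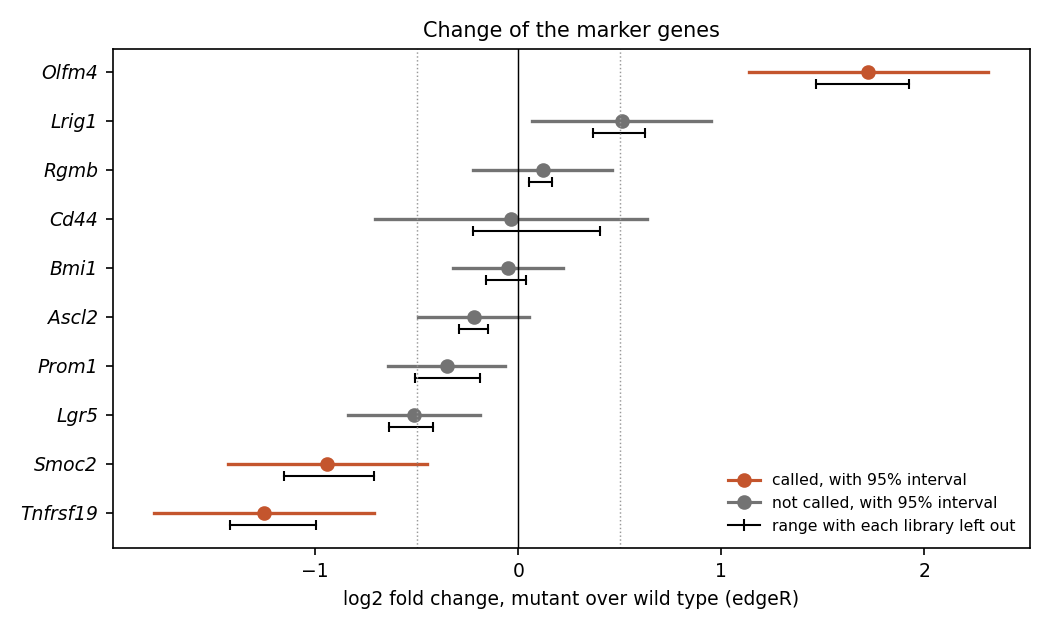
Log2 fold change of each marker gene in mutant over wild type libraries from edgeR, with its 95% interval (orange: called, grey: not called) and, in black, the range of the fold change with each library left out in turn; dotted lines mark 0.5 in either direction. The intervals of *Olfm4*, *Smoc2*, *Tnfrsf19*, *Lgr5*, *Prom1* and *Lrig1* lie on one side of 0.

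The promoters of *Tnfrsf19* and *Olfm4* are shown because these are the called markers for which the RefSeq table (GRCm38.p6) holds a start site. The table matched 8 of the 10 markers, with 12 start sites, and not *Lgr5* and *Smoc2*. Each window runs from 250 bases before to 50 after a start site. The letters CTTTGAT and CTTTGAA, the core bound by TCF/LEF factors, were searched on both strands, and matches are in capitals. Of the 12 windows, 1 holds a match, on the opposite strand from 202 to 196 bases before a start site of *Tnfrsf19* (chr14:61037938-61038237, minus strand), and no match was found in the window at the other start site of *Tnfrsf19* (chr14:61046806-61047105, minus strand), which is not shown, or in that of *Olfm4* (chr14:80000052-80000351, plus strand).
Tnfrsf19: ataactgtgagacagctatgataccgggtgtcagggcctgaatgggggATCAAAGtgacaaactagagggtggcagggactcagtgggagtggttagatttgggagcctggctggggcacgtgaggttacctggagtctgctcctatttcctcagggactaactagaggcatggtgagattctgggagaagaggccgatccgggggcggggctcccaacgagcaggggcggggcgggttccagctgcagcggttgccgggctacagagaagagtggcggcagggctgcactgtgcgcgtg
Olfm4: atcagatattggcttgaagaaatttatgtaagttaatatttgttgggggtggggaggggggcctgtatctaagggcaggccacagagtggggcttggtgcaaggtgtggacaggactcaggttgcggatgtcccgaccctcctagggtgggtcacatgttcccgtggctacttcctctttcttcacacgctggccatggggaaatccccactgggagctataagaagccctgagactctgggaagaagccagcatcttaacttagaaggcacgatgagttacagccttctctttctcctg
Among all 32851 windows of the table, 3.73% hold CTTTGAT and 8.65% hold either sequence, and 8.33% of the marker windows did. The match in *Tnfrsf19* is a description of these letters, and binding was not measured here.

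To compare levels between markers, normalized counts were divided by the annotated exon bases of each gene, giving a value per exon length and library size (RPKM). In wild type epithelium the mean RPKM was 19.8 ± 2.12 for *Prom1* and 19.5 ± 1.79 for *Ascl2*, followed by 12.6 ± 1.73 for *Bmi1* and 12.2 ± 3.80 for *Smoc2* (SD, n = 3). *Prom1* and *Ascl2* overlapped over the 3 libraries, as did *Bmi1* and *Smoc2*, but the lowest *Ascl2* library was above the highest of *Bmi1*. These 4 were above the median of 6.53 RPKM over the 11874 tested genes with an annotated length, and the others were below it. *Rgmb* had 3.64 ± 0.335 RPKM, *Lgr5* 2.71 ± 0.476, *Tnfrsf19* 2.11 ± 0.634, *Lrig1* 1.36 ± 0.253, *Olfm4* 1.32 ± 0.456 and *Cd44* 0.805 ± 0.365. From *Lgr5* down, each marker overlapped with the next. *Lgr5* stood at the percentile 34.0 and *Olfm4* at 22.9 of the tested genes, and the top marker was 24.6-fold above the lowest. With the longest transcript as the length, *Lgr5* had 5.81 RPKM and moved ahead of *Rgmb*, because its annotated exons hold 10264 bases and its longest transcript 4793. In the mutant libraries *Olfm4*, with 4.38 ± 0.796 RPKM, moved from rank 9 to rank 5 of the 10, and *Tnfrsf19*, with 0.885 ± 0.105, from rank 7 to rank 9.

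**Figure D3:**
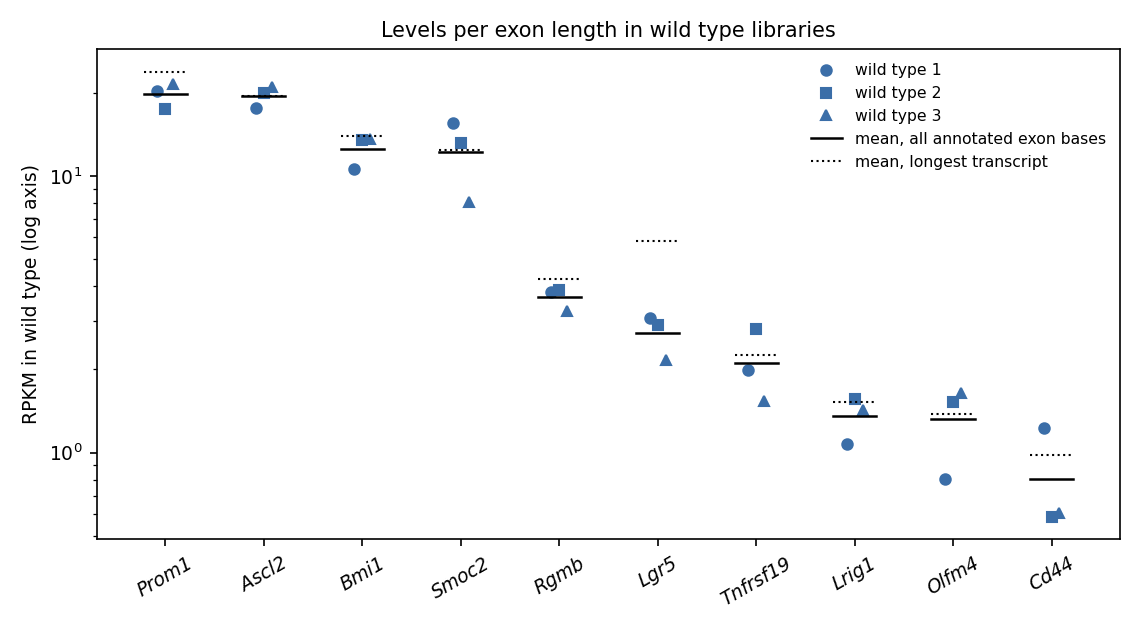
RPKM (log axis) of the marker genes in the 3 wild type libraries, with the mean over all annotated exon bases as a solid line and the mean over the longest transcript as a dotted line. The levels fall into an upper set of *Prom1*, *Ascl2*, *Bmi1* and *Smoc2*, at 8.08 RPKM or more in each library, and a lower set at 3.88 or less, and *Lgr5* is the marker that depends most on the length used.

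The spread between libraries of a group differed among the markers. In wild type the SD was 45.3% of the mean for *Cd44*, 34.4% for *Olfm4*, 31.0% for *Smoc2* and 30.1% for *Tnfrsf19*, and 9.16% for *Ascl2*. In mutant libraries it was 1.83% for *Lrig1*, 2.84% for *Lgr5* and 30.7% for *Smoc2*. Wild type 3 had the lowest count of *Lgr5*, *Smoc2*, *Tnfrsf19* and *Rgmb* among the wild type libraries, with 56.4% of the mean of wild type 1 and 2 for *Smoc2*, 64.5% for *Tnfrsf19* and 72.8% for *Lgr5*. For *Olfm4* it had the highest count of the 3. In all of these but *Rgmb*, wild type 3 was therefore the wild type library nearest to the mutant ones. This was not particular to the markers. The chi-square of all counts was 27.9 to 32.3 per gene between wild type 3 and the mutant libraries. Between wild type 1 or 2 and the mutant libraries it was 39.0 to 54.2.

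Relatives of the markers were compared to see whether a change was shared within a family. Of 24 paralogues, 15 were tested, with a median log2 fold change of -0.16. Of these, 1 was called higher and 1 lower, or 6.67% each, against 2.78% and 5.83% of all tested genes. *Lgr4*, which encodes another R-spondin receptor, had 19.2 RPKM in wild type, and its log2 fold change of -0.45 (SE 0.09, adjusted p = 0.0013 from edgeR) was under the 0.5 set for a call. *Lgr6* was not tested and had counts in wild type 1 only. *Olfm1* fell from 698, 678 and 680 to 509.6, 355 and 520.2 normalized counts (log2 fold change -0.57, adjusted p = 0.0098), whereas *Olfm4* rose, but the call of *Olfm1* was lost in all 6 fits that left out a library, with RLE normalization and with the gene-length correction. *Smoc1*, with 34.4 to 43.7 normalized counts in wild type against 30.8 to 58.9 in mutant libraries, was far below *Smoc2* in reads per length as well (0.574 RPKM) and was not called (adjusted p = 0.789).

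*Pcgf5* encodes a relative of BMI1 that takes its place in other forms of PRC1. It rose from 728, 766 and 942 to 1593, 1584 and 1378 normalized counts (log2 fold change 0.90, SE 0.12, edgeR adjusted p = 4.4e-05). All mutant libraries were above the wild type ones, and the call was kept with each library left out. *Pcgf6*, the relative with the highest level (34.9 RPKM), had a log2 fold change of 0.22 (adjusted p = 0.046) and was not called. Among the other highest paralogues, *Lrig3* (log2 fold change -0.65, adjusted p = 0.085), *Relt* (0.94, adjusted p = 0.271) and *Prom2* (-0.27, adjusted p = 0.794) were not called either. *Smoc1*, *Relt* and *Prom2* were under the mean normalized count of 50 and could not be called whatever their adjusted p. *Lyve1*, a hyaluronan receptor like CD44, had 41.0 to 61.8 normalized counts in wild type against 78.4 to 120.1 in mutant libraries and was not called (log2 fold change 0.93, adjusted p = 0.037). The paralogues of *Ascl2* and *Rgmb* had at most 6.52 normalized counts in any library and were not tested.

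A list of 29 other genes known from adult stem cells or from WNT feedback in them held 27 tested genes, with a median log2 fold change of -0.10. Of these, 2 were called higher and 2 lower, or 7.41% each, against 2.78% and 5.83% of all tested genes. *Hopx*, which encodes a homeodomain protein without DNA binding and has been used to mark reserve stem cells, rose from 3703, 3864 and 4265 to 5390, 6009 and 5837 normalized counts (log2 fold change 0.54, adjusted p = 1.1e-04), and its call was lost without wild type 1 and with library size as the only scaling. *Sox9*, a transcription factor of crypt progenitors and Paneth cells, fell from 3055, 3745 and 2800 to 1934, 1901 and 2021 (log2 fold change -0.71, adjusted p = 8.4e-05). *Fstl1*, a secreted glycoprotein, had 687, 695 and 437 normalized counts in wild type against 389, 371 and 324 in mutant libraries (log2 fold change -0.75, adjusted p = 0.0050), and was called in 1 of the 6 fits that left out a library, the one without wild type 3. *Sox9* and *Fstl1* were not called after the correction for gene length.

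Several feedback genes of the WNT pathway are in this list and were not called. *Axin2* had 15.2 to 35.4 normalized counts in wild type against 16.6 to 26.9 in mutant libraries (log2 fold change -0.25, adjusted p = 0.767), and *Notum* had none in any library. *Rnf43* (-0.10, adjusted p = 0.699), *Znrf3* (0.33, adjusted p = 0.404), *Sp5* (1.12, adjusted p = 0.095) and *Nkd1* (-0.60, adjusted p = 0.338) were not called in the edgeR test. *Axin2* and *Sp5* were under the mean normalized count of 50 and could not be called whatever their adjusted p. *Sp5* was higher in every mutant library than in any wild type library.

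Of 33 genes for ligands, receptors and complex partners of the marker proteins, 24 were tested, of which 0 were called higher and 4 lower, or 0 and 5 with DESeq2. The 4 called lower in edgeR made up 16.7% of the list, against 5.83% of all tested genes, where 2.78% were called higher. The number called lower was 6 with library size as the only scaling and without the filter on low counts, and 2 with the gene-length correction, which ended the calls of *Rdx* and *Phc1*. With a library left out it was 1 without wild type 1, wild type 2 or mutant 3, 2 without mutant 2, 3 without mutant 1 and 5 without wild type 3. At an unadjusted p under 0.05 in edgeR, 1 partner was higher, *Egfr* (adjusted p = 0.100). Their median log2 fold change was -0.33. R-spondins, the ligands of LGR5, had at most 13.1 normalized counts in any library. *Esrp2*, a splicing regulator of CD44, fell from 604, 655 and 509.6 to 381, 293 and 340.2 (log2 fold change -0.80, adjusted p = 0.0013), while its relative *Esrp1* had 17.1 RPKM in wild type, against 6.97 for *Esrp2*, and was not called (0.03, adjusted p = 0.821). *Rdx*, which encodes radixin, a linker of CD44 to actin, fell from 249, 224 and 191 to 126, 106 and 108 (log2 fold change -0.96, adjusted p = 0.0034). Of the PRC1 partners of BMI1, *Phc1* (log2 fold change -0.85, adjusted p = 0.0048) and *Cbx2* (-0.91, adjusted p = 0.0017) fell. The calls of *Rdx* and *Phc1* were kept in 2 and that of *Cbx2* in 3 of the 6 fits that left out a library, and that of *Esrp2* in 5.

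**Figure D4:**
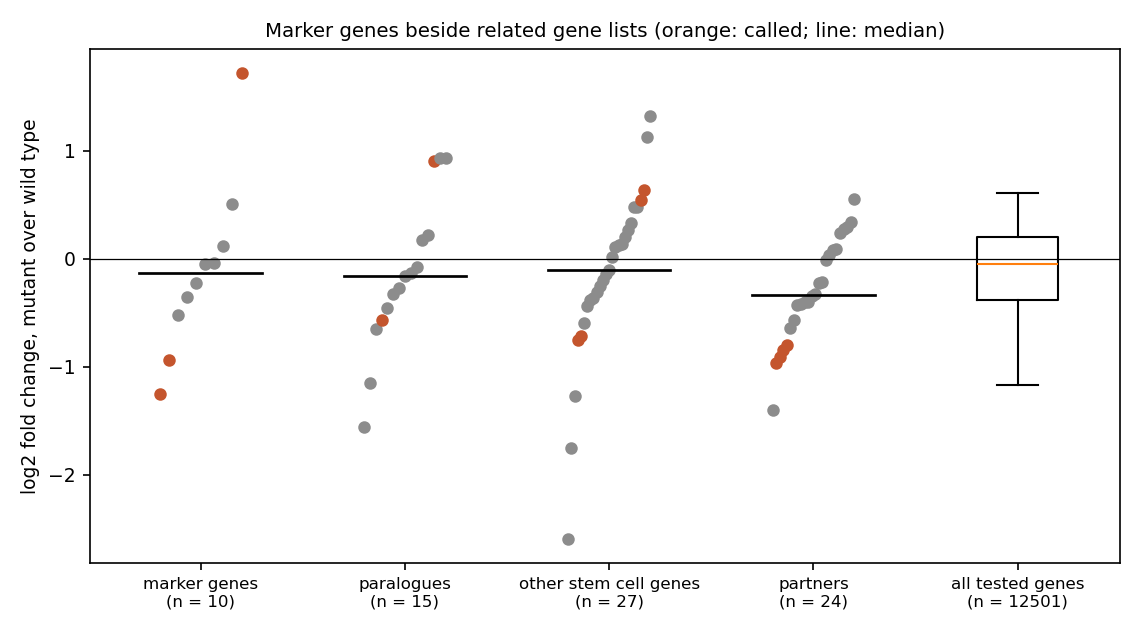
Log2 fold changes in mutant over wild type libraries of the marker genes and of the tested genes in 3 related lists (orange: called, grey: not called, line: median), beside a box of all 12501 tested genes with its median and quartiles and whiskers at the percentiles 5 and 95. *Olfm4*, at 1.72, is above the upper whisker at 0.61, and *Tnfrsf19*, at -1.25, is just below the lower one at -1.17.

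The genes whose pattern over the 6 libraries was most like that of a marker were those with the smallest root mean square difference in log2 CPM, centred for each gene. For *Lgr5* these were *Alkbh5* (0.0341), *Dgcr8* (0.0470) and *Tnfrsf21* (0.0507), where the median over all tested genes was 0.373. For *Olfm4* they were *Mt2* (0.265), *Edem1* (0.298) and *Mt1* (0.299), at a median of 0.989, and for *Smoc2* they were *Abcc4* (0.0930), *Cav2* (0.112) and *Tram1l1* (0.146), at a median of 0.649. *Mt1* and *Mt2* encode metallothioneins, which bind zinc and copper, and the next gene to *Olfm4* was still farther from it than those of *Lgr5* and *Smoc2* were from theirs.

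The epithelial markers *Epcam*, *Krt8*, *Krt18* and *Krt19* had 702 RPKM or more in wild type, and *Cdx2* and *Vil1* were present in every library. Of the 9 epithelial markers 3 were called lower (*Cdh1*, *Krt18* and *Cdx2*), or 33.3%, against 5.83% of all tested genes. *Krt8* and *Krt19* were lower in every mutant library (log2 fold change -0.32 and -0.49, edgeR adjusted p = 0.0010 and 2.8e-05). They were not called because both were under the fold change set for a call. *Epcam* and *Cldn7* were higher in every mutant library but not called (log2 fold change 0.25 and 0.24, edgeR adjusted p = 0.013 and 0.0091). The groups overlapped for *Cldn3* and *Vil1*. Endothelial markers summed to at most 21.7 normalized counts, with 4 of 6 at 0 in every library, and blood markers to at most 34.4, with 4 of 7 at 0. The mesenchyme list summed to 1326 to 1601 in wild type against 1042 to 1476 in mutant libraries, mostly *Vim*. Without *Vim* its 9 other genes summed to 283, 214 and 139 in wild type against 131, 222 and 515 in mutant libraries. *Acta2* made up 95.1, 171 and 488 of these mutant sums. *Col3a1* went the other way, with 42.1, 37.2 and 10.4 in wild type against 8.27, 6.38 and 4.42 in mutant libraries. *Pdgfra* had 5.58 to 21.5 in wild type and at most 1.10 in mutant libraries. For the others of the 9, as for *Acta2*, the groups overlapped. Gastric markers summed to 742 to 983 normalized counts in wild type against 116 to 154 in mutant libraries, with *Muc6* at 0 and *Tff1* at 1.06 or less in every library. *Nkx6-3* (wild type mean 383, mutant mean 13.8) and *Cldn18* (299 and 42.6) made up most of the wild type sums. They were the 2 called lower of 6 tested, or 33.3%, against 5.83% of all tested genes. *Gkn2*, *Tff2*, *Barx1* and *Sox2* were lower in every mutant library, at low counts, and were not called. *Gkn1* had means of 43.3 and 43.4, and its groups overlapped. The 7 posterior intestine markers summed to 116 to 172 normalized counts in wild type against 53.0 to 76.6 in mutant libraries, with *Hoxd8* and *Hoxd9* at 0 in every library. The part of these cell types or regions in the differences of *Lgr5*, *Smoc2*, *Tnfrsf19* and *Olfm4* was not tested.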

How the data were processed

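Per the labels and the paper's methods, polyA RNA of 500 sorted EpCAM-positive cells per library was amplified as cDNA for 15 cycles. The authors mapped reads with STAR 2.5.2b to mm9, counted uniquely mapping reads on a UCSC gene model with featureCounts 1.5.1 and deposited raw counts per gene, 1 table per library. Strand settings are not given in the sources used here. Reads were counted without molecular identifiers, so counts are not molecules.

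Counts were analysed in R 4.3.3 with edgeR 4.0.16 (filterByExpr, TMM, quasi-likelihood test on genotype, Benjamini-Hochberg adjustment over all 12501 tested genes). Normalized counts are on the scale of the mean library. The study states an RPKM threshold of 50 for calls, which was read here as a mean normalized count of 50. SE and 95% intervals come from the edgeR fit. The fit was tested on simulated data. RPKM used exon lengths of an mm9 annotation, which covers 11874 tested genes, from the union of exons or the longest transcript.

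The marker genes, the gene lists, the thresholds and the rule for naming genes were chosen with earlier results of these data known. Genes named are the 10 markers, the called genes of the lists of paralogues, other stem cell genes and partners (1 of them is not reported here), and the tested paralogue of each marker with the highest wild type RPKM. For *Lgr5*, *Olfm4* and *Smoc2* the 3 genes nearest in pattern are also named, and *Tcf7l1*, *Shh*, *Xist* and *Ddx3y* as checks. Other list genes, among them the feedback genes of the WNT pathway, *Lgr6*, *Esrp1*, *Egfr* and the genes of the cell type, region and proliferation lists, were named after their values were seen. The symbol Foxf1a of the mesenchyme list was matched as *Foxf1*.

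The tests were repeated with DESeq2 1.42.0, with RLE factors or library sizes in place of TMM, on unfiltered genes, at other thresholds, after removing a loess trend on gene length (span 0.5), with a replicate block, and without each library. Their use on the 3 related lists, and the mesenchyme sum without *Vim*, were added after seeing the data. Tables and figures were made with Python 3.11.15 and matplotlib 3.10.9.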

Additional observations from a re-analysis of the deposited data

How the results depend on the processing

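For the 10 fold changes under 14 alternatives each and the 2 counts of called markers, 142 values kept their direction and their side of the threshold (for a count, stayed within 1.5 times). Of the rest, 9 fold changes lost their call, 2 gained one and 8 changed direction, and 7 counts moved further. The alternatives that only change thresholds reuse the main fit, so no direction could change there. The number of markers called higher stayed at 1 in all 14 alternatives. The number called lower was 1, *Tnfrsf19* alone, when a log2 fold change of 1 was required, where *Smoc2* at -0.94 was not called, and 1 with the gene-length correction, where *Smoc2* had -0.80. With each library left out it ranged from 0 to 3. In these fits the log2 fold change ranged from -1.42 to -0.99 for *Tnfrsf19*, from -1.15 to -0.71 for *Smoc2*, from -0.64 to -0.42 for *Lgr5*, from -0.16 to 0.039 for *Bmi1* and from -0.22 to 0.40 for *Cd44*. *Lgr5* at -0.52 was called at an adjusted p under 0.05 alone. *Lgr5* was at -0.31, *Bmi1* at 0.17 and *Cd44* at 0.18 with the gene-length correction, and *Cd44* at 0.032 with the replicate block. Same-numbered libraries did not deviate together over all genes (correlations from -0.045 to 0.0097 over 12501 genes). This cannot exclude a pairing by number that affects some genes. With the replicate block the edgeR adjusted p was lower for *Smoc2* (3.3e-04) and *Prom1* (0.023), and higher for *Tnfrsf19* (0.0035) and *Lgr5* (0.027). The replicate block changed no call of a marker and gave 339 higher and 691 lower genes against 348 and 729. Library size as the only scaling moved the median of all genes by -0.11 on the log2 scale, and the gene-length correction by 0.14. Calls were 200 higher and 957 lower with the former (17.3% higher), 726 and 384 with the latter (65.4% higher) and 348 and 729 (32.3% higher) with TMM. Over all genes, 85 were higher and 284 lower when a log2 fold change of 1 was required, and 1702 and 1892 at an adjusted p under 0.05 alone. Genes called lower numbered 405 to 867 with each library left out, the fewest without wild type 1 (405), wild type 2 (406) or mutant 2 (463). The causes of these shifts were not tested. With 3 libraries in a group, the 95% interval of *Cd44*, from -0.71 to 0.63, holds changes on either side of the 0.5 needed for a call.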

Other observations

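Genes of the cell cycle, which mark dividing progenitors, moved in both directions beside the stem cell markers. Of 8 proliferation genes tested, *Top2a*, a topoisomerase of mitotic cells, rose from 4147, 3600 and 4135 to 6003, 5252 and 5768 normalized counts (log2 fold change 0.52, edgeR adjusted p = 2.3e-04), and *Ccnb1*, the mitotic cyclin B1, rose from 6398, 6481 and 7668 to 10123, 10063 and 9707 (0.54, adjusted p = 1.1e-04). *Mcm2*, a subunit of the helicase that opens DNA for replication, fell from 5448, 4954 and 3955 to 3665, 2787 and 3532 (-0.52, adjusted p = 0.0032). *Mki67* had 1525 to 1746 in wild type against 1966 to 2172 in mutant libraries (0.36, adjusted p = 0.0069) and was under the fold change set for a call. *Pcna* (0.37, adjusted p = 0.0037) and *Ccne1* (0.27, 0.024) were higher in every mutant library, and *Mcm5* (-0.32, 0.0092) was lower. These were not called, and neither was *Ccnd1*, whose groups overlapped. Of the 8 genes 2 were called higher and 1 lower, or 25% and 12.5%, against 2.78% and 5.83% of all tested genes. All these genes were named after their values were seen.

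Of the 3 anterior intestine genes, *Pdx1* (log2 fold change -2.09, adjusted p = 1.8e-05) and *Onecut2* (-0.72, adjusted p = 2.5e-04) fell, and *Gata4* had a log2 fold change of -0.14 (adjusted p = 0.298, edgeR).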
